A study of Homo sapiens with 16 samples.

Results

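The clustered core histone genes are the replication-dependent genes for histones H2A, H2B, H3 and H4 that lie together in the HIST1 cluster on chromosome 6, the HIST2 and HIST3 clusters on chromosome 1 and the single-gene locus HIST4 on chromosome 12. Rows were taken by symbol: HIST followed by the cluster number and H2A, H2B, H3 or H4, leaving out names that end in P or PS with or without a number. Of 35106 rows, 80 had a core histone symbol; 13 of these had a pseudogene name, which left 67 genes. They comprise 17 H2A, 22 H2B, 13 H3 and 15 H4 genes, of which 49 belong by name to HIST1, 13 to HIST2, 4 to HIST3 and 1 to HIST4. HIST2H2BA (chr1:121108210-121117257) lies apart from the other HIST2 genes (chr1:149782689-149887916) and was counted with them by name. The annotation lists 63 as protein-coding and the remaining 4 (HIST2H2BA, HIST2H2BC, HIST2H2BD and HIST3H2BA) as pseudogenes despite their names.

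RNA was sequenced from 2 human breast cancer cell lines that received MitoQ or served as controls. MitoQ is a ubiquinone linked to triphenylphosphonium, a lipophilic cation that carries it into mitochondria. There were 5 MDA-MB-231 libraries with 500 nM MitoQ for 48 h and 5 MDA-MB-231 control libraries at passage 25, and 3 SKBR3 libraries with the same dose and time and 3 SKBR3 control libraries at passage 10. MDA-MB-231 cells lack hormone receptors and have mesenchymal traits, SKBR3 cells are epithelial with amplified ERBB2, and both are established lines. Both were seeded at 70% confluency. The sources used here do not say what the controls received or whether RNA with a poly(A) tail was selected; if it was, the levels and changes given here cover mainly the forms of histone RNA that carry a tail. Libraries held 14723152 to 29294865 counts in total, a range set on both ends by control libraries (SKBR3 for the lowest, MDA-MB-231 for the highest). The line markers followed the labels: ERBB2 averaged 53.6 CPM (counts scaled to equal library sizes, in counts per 1e6) in MDA-MB-231 MitoQ and 54.2 CPM in its controls, but 5724 CPM in SKBR3 MitoQ and 5327 CPM in its controls. MDA-MB-231 MitoQ replicate 2 stood apart, with a chi-square per gene of 14.8 to 19.6 against the other 4 libraries of its group, which differed among themselves by 3.14 to 10.8. SKBR3 control replicates 1 and 3 differed by 13.8. For genes picked by the naming rule below, calls lost without a library are given with the adjusted p without it. For the difference of the MitoQ effect between lines, only HIST1H3I, HIST1H2AA and HIST1H2BF were checked in this way. Calls of other single genes were not checked by leaving out libraries.

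Replication-dependent histone genes are switched on as cells enter S phase, when cyclin E-CDK2 activates the coactivator NPAT at the clusters, and their mRNAs are degraded when DNA replication ends. Their transcripts carry no introns and, in place of a poly(A) tail, end in a conserved stem-loop that the protein SLBP binds. H2A and H2B genes often sit head to head and share a promoter; H2A-H2B dimers and H3-H4 tetramers form the protein core of the nucleosome.

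Promoter sequences show how the classes differ in the letters that flank their starts. A promoter of 300 bases, 250 before and 50 after the start, was found in the RefSeq table (GRCh38.p14) for 58 of the 67 genes. The motifs were searched on both strands: the TATA box, as TATAAA; the CCAAT box; and the octamer bound by POU2F1, as ATTTGCAT. Matches of different motifs shared no letters in these promoters, and in 4 promoters (HIST1H3F, HIST1H2BJ, HIST1H2AG and HIST1H2BK) the TATA box was read on both strands over shared letters. The TATA box stood in 12 of 16 H2A, 12 of 18 H2B, 8 of 11 H3 and 7 of 13 H4 promoters, against 11.5% of all 35116 promoters in the table. The CCAAT box stood in all 16 H2A, all 18 H2B and all 11 H3 promoters but in 3 of 13 H4 promoters, against 34.6% of all promoters. The octamer stood in 11 of 16 H2A and 14 of 18 H2B promoters, 1 of 11 H3 promoters and 0 of 13 H4 promoters, against 1.77% of all promoters. Windows of head-to-head partners overlap, so their matches are partly the same letters. The 4 promoters below belong to genes that the results turn on; capitals mark these motifs on either strand. HIST1H2BA (chr6:25726527-25726826, plus strand) and HIST1H2BM (chr6:27814772-27815071, plus strand) had the largest falls among H2B genes with MitoQ in MDA-MB-231, HIST1H3B (chr6:26032050-26032349, minus strand) was the H3 gene with the highest level per length, and HIST1H4F (chr6:26240143-26240442, plus strand) is an H4 gene with 0 counts in all MDA-MB-231 libraries.
HIST1H2BA: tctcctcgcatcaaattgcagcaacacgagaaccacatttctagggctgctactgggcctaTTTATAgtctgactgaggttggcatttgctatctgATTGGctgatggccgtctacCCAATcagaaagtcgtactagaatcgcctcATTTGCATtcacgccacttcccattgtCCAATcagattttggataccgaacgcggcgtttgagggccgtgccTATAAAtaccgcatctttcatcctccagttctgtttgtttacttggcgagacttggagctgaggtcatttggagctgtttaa
HIST1H2BM: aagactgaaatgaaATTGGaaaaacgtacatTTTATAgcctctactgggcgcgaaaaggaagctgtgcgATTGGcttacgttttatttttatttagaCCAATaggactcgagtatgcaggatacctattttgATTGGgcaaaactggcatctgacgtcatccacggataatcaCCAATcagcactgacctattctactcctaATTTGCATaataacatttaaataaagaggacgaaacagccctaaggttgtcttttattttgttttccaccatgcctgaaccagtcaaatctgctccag
HIST1H3B: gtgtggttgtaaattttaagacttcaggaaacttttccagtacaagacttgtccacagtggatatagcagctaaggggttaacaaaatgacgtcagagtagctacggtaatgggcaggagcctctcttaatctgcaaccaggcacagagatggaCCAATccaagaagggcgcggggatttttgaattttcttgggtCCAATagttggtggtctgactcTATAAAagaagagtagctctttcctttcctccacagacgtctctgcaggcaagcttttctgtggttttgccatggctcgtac
HIST1H4F: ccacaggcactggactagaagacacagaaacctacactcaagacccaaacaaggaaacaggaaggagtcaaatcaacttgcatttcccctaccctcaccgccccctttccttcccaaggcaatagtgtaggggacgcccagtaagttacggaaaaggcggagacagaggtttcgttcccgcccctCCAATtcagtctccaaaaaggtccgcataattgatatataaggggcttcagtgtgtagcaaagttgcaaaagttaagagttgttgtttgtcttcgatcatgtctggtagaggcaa

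The 3′ stem-loop was found in the annotated transcripts of 34 of the 67 genes. It was not found with the forms searched in the others. The 16 bases of stem and loop, in capitals here with 5 flanking bases on each side, came in few forms. All 8 H4 genes with one had GGCCC as the 5′ arm of the stem, and the 26 H2A, H2B and H3 genes had GGCTC. The 5 examples show all forms but 1, among them that of the H3 gene with a different loop; the remaining form, read in HIST1H2AG, HIST2H2BD and HIST2H2BC, is not shown.
HIST1H2BC: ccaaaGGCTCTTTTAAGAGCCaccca
HIST2H2AA4: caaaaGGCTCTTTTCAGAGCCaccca
HIST1H4B: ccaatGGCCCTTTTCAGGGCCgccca
HIST2H4A: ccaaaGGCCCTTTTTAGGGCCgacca
HIST1H3E: ccaaaGGCTCTTCTCAGAGCCaacca

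Many of these genes code for the same protein from different DNA, and some copies cannot be told apart by reads. In the annotated coding sequences, 14 of 15 H4 genes code for 1 protein of 103 residues and 10 of 13 H3 genes for 1 protein of 136 residues, while 17 H2A genes code for 11 proteins and 18 H2B genes for 14. The share of each gene's 31-base stretches that occur in annotated transcripts of other genes had a median of 13.5% and ran from 0% to 100%. It exceeded 50% in 18 genes. Single values are uncertain for HIST2H2AA3 (100%) and HIST2H2AA4 (97.2%), for HIST2H4A (98.6%) and HIST2H4B (97.2%), for HIST1H4J (82.2%) and HIST1H4K (100%), for HIST2H3C (100%), for HIST2H3D (86.4%) and for HIST1H2AM (87.1%), which overlaps HIST1H3J (42.4%). The same holds for HIST1H2AI (63.8%), HIST1H2AJ (86.0%), HIST1H2AK (100%), HIST1H2BK (86.3%) and HIST2H2BA (84.7%). The rest of the 18 were HIST1H3D (100%), HIST1H2AD (98.1%), HIST2H2BD (71.6%) and HIST2H2AC (50.6%). Reads of such genes could be split between copies in any way. Where more than 50% of a gene's stretches occur in another core histone gene, both were also summed. This gave 8 families of 16 near-identical or overlapping genes. HIST2H3C, HIST2H3D, HIST2H2AC, HIST1H2BK, HIST1H3D and HIST1H2AD joined no family, so the split of their reads was not checked in this way. By contrast, HIST1H2AA, HIST1H2BA, HIST1H3A, HIST1H4C and HIST1H4F shared 0%.

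Core histone RNA was lower with MitoQ in MDA-MB-231 and slightly higher in SKBR3. The 67 genes summed to 5875 ± 525 CPM in MDA-MB-231 MitoQ against 14360.3 ± 768 CPM in its controls (SD, n = 5 each), a ratio of 0.409. In SKBR3 they summed to 9433 ± 634 CPM with MitoQ against 8291 ± 578 CPM in controls (SD, n = 3 each), a ratio of 1.14. The libraries did not overlap in MDA-MB-231, at 5109.7 to 6467 CPM with MitoQ and 13259 to 15278 CPM in controls; in SKBR3 they did, at 8824 to 10089 CPM and 7937 to 8958 CPM. In bulk samples, fewer cells that express these genes and less of their RNA per cell cannot be told apart. The control cells of MDA-MB-231 held 1.73 times the CPM of the SKBR3 controls. As a share of all counts, core histone genes made up 0.533% to 0.655% with MitoQ and 1.31% to 1.49% without it in MDA-MB-231. In SKBR3 they made up 0.898% to 0.977% with MitoQ and 0.790% to 0.889% without it.

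All 4 classes moved by similar amounts in their sums. In MDA-MB-231 the ratio of MitoQ to control was 0.440 for H2A, 0.412 for H2B, 0.401 for H3 and 0.384 for H4. The clusters were less alike: the ratio was 0.365 for HIST1, 0.515 for HIST2 and 0.433 for HIST4. HIST1 thus made up 62.6% of the sum with MitoQ and 70.1% in controls. In SKBR3 the ratio was 1.11 for H2A, 1.16 for H2B, 1.16 for H3 and 1.13 for H4. HIST3 was near 0 in MDA-MB-231, at 0.668 ± 0.293 CPM with MitoQ and 0.454 ± 0.0628 CPM in controls, against 77.9 ± 4.82 CPM in SKBR3 MitoQ and 76.4 ± 5.83 CPM in SKBR3 controls.

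**Figure D1:**
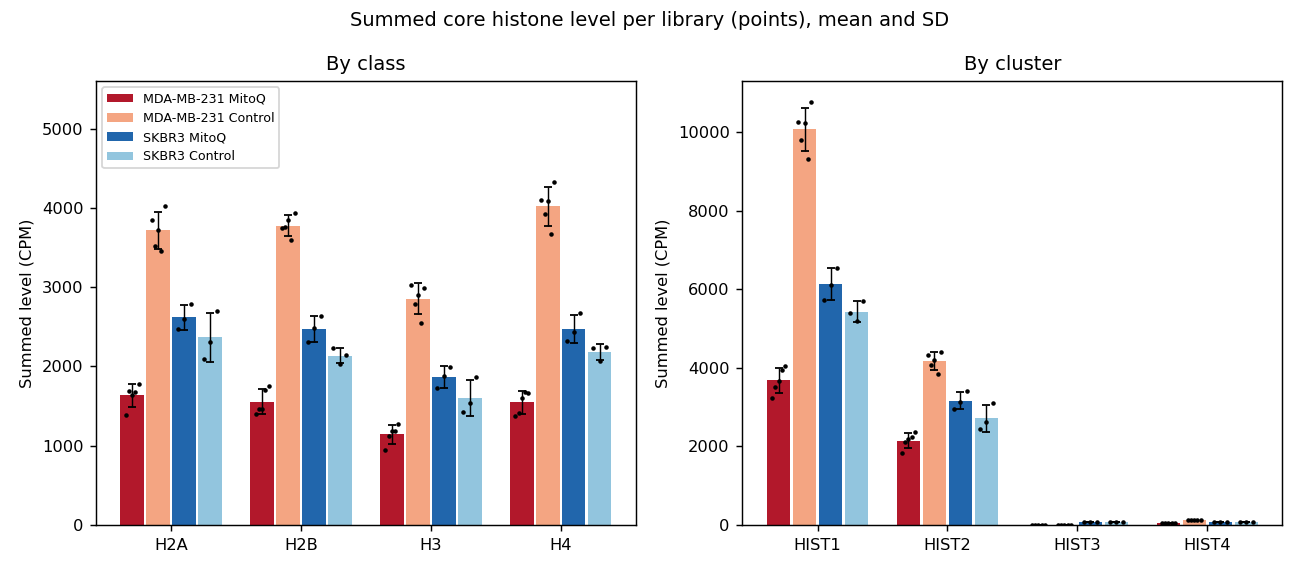
Summed level in CPM of the core histone genes by class (left) and by cluster (right) in the 4 groups; bars are means, whiskers SDs and points single libraries. In every class the 5 MDA-MB-231 MitoQ libraries lie below the 5 control libraries, and HIST3 is near 0 in MDA-MB-231, at 0.668 CPM with MitoQ.

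In MDA-MB-231, 45 of the 67 genes had enough counts to be tested, and 42 of these fell with MitoQ (edgeR quasi-likelihood test, adjusted p under 0.05) where 27.6% of all 15304 genes tested fell. None of the 45 rose: the count was 0 with edgeR, 0 with DESeq2 and 0 at an unadjusted p under 0.05, where 29.9% of all genes tested rose. The median log2 fold change was -1.43, against 0.01 over all genes tested, and 32 genes fell by more than 2-fold. By class, 12 of 13 H2A, 15 of 17 H2B, 7 of 7 H3 and 8 of 8 H4 genes tested fell. In 41 genes every MitoQ library lay below every control library, which held for 22.9% of all genes tested. Without MitoQ replicate 2, the library that stood apart, 42 fell and 1 rose. The 3 genes without a call over all libraries were HIST2H2AA3, HIST2H2BA and HIST3H2BB.

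Among H2A genes, which code for a subunit of the H2A-H2B dimer, HIST1H2AA and HIST1H2AB had the largest falls. HIST1H2AA, a testis-enriched H2A variant gene, was at 1.63, 1.40, 2.11, 1.47 and 1.63 CPM in the MitoQ libraries of MDA-MB-231, against 19.996, 19.2, 19.1, 19.7 and 21.5 CPM in its controls. The groups lie far apart, and the log2 fold change was -3.58 ± 0.10 (SE; adjusted p = 4.94e-16). HIST1H2AB was at 35.0, 39.5, 41.9, 36.4 and 36.2 CPM with MitoQ against 234, 211, 229, 207 and 258 CPM in controls. That is a log2 fold change of -2.57 ± 0.07 (SE; adjusted p = 2.73e-16), and 13.5% of its stretches occur elsewhere. HIST2H2AA4, the H2A gene with the highest level per length, fell by 0.89 on the log2 scale (SE 0.08; adjusted p = 1.78e-07), to 415, 607, 487, 504 and 483 CPM with MitoQ against 1006, 904, 931, 858 and 991 CPM in controls. Its near-identical copy HIST2H2AA3 was at 74.1, 0, 61.9, 90.4 and 139 CPM with MitoQ against 156, 151, 178, 184 and 201 CPM in controls. The library at 0, replicate 2, is the one in which HIST2H2AA4 was highest. HIST2H2AA3 had a log2 fold change of -1.23 ± 0.73 (SE; adjusted p = 0.184), and -0.90 (adjusted p = 0.0120) without that library. Summed, the copies fell by 0.94 on the log2 scale (SE 0.06; adjusted p = 1.55e-10).

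Among H2B genes, the other subunit of that dimer, HIST1H2BA and HIST1H2BM had the largest falls. HIST1H2BA, which codes for the testis H2B variant and starts 250 bases from HIST1H2AA on the other strand, was at 10.7, 9.24, 8.23, 12.2 and 13.0 CPM with MitoQ in MDA-MB-231, against 87.8, 91.3, 92.7, 90.6 and 98.7 CPM in controls. Its log2 fold change was -3.08 ± 0.09 (SE; adjusted p = 1.07e-14). HIST1H2BM was at 8.47, 11.9, 11.4, 11.6 and 11.2 CPM with MitoQ against 73.1, 76.9, 75.4, 74.7 and 78.3 CPM in controls. Its log2 fold change was -2.77 ± 0.07 (SE; adjusted p = 2.73e-16). HIST1H2BD, which with HIST1H2BC had the highest level per length among H2B genes (429 and 428 CPM per kb with MitoQ, 901 CPM per kb in controls for each), fell less, by 1.05 on the log2 scale (SE 0.05; adjusted p = 1.78e-12). It averaged 339 ± 24.9 CPM with MitoQ and 711 ± 18.4 CPM in controls (SD, n = 5 each).

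Among H3 genes, HIST1H3J and HIST2H3D had the largest falls. HIST1H3J was at 18.2, 19.5, 20.6, 21.4 and 24.6 CPM with MitoQ in MDA-MB-231 against 151, 129.6, 138, 127 and 156 CPM in controls, a log2 fold change of -2.73 ± 0.08 (SE; adjusted p = 2.71e-15). It overlaps HIST1H2AM, which fell by 1.01 on the log2 scale (SE 0.06); summed, the pair fell by 1.32 (SE 0.06; adjusted p = 3.48e-12). HIST2H3D was at 17.6, 18.0, 27.1, 23.6 and 24.9 CPM with MitoQ against 130.1, 112, 117, 102 and 123 CPM in controls, a log2 fold change of -2.38 ± 0.11 (SE; adjusted p = 3.80e-09). HIST2H3D has 86.4% of its stretches elsewhere and was not summed with another gene, so its single value is uncertain. The H3 gene with the highest level per length in both lines was HIST1H3B, which shares 8.14% of its stretches. It was at 311, 331, 345, 377 and 385 CPM with MitoQ against 1054, 1032, 1054, 914 and 1031 CPM in controls, and its log2 fold change was -1.52 ± 0.06 (SE; adjusted p = 9.08e-14).

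Among H4 genes, the partners of H3, HIST1H4B had the largest fall. It was at 211, 239, 248, 247 and 239 CPM with MitoQ in MDA-MB-231 against 812, 764, 801, 728 and 829.7 CPM in controls, a log2 fold change of -1.71 ± 0.05 (SE; adjusted p = 2.39e-15). HIST1H4C, with 0% of its stretches elsewhere, averaged 225 ± 16.1 CPM with MitoQ and 690.1 ± 57.9 CPM in controls (SD, n = 5 each), and fell by 1.60 (SE 0.06; adjusted p = 4.87e-14). HIST1H4J had the highest level per length of all 67 genes in this line, at 1319 CPM per kb of transcript with MitoQ and 2801 CPM per kb in controls. Its log2 fold change was -1.07 ± 0.07 (SE; adjusted p = 1.39e-09), and its near-copy HIST1H4K had 0 counts in all 16 libraries. HIST4H4, alone at its locus on chromosome 12, was at 44.9, 55.0, 51.0, 56.6 and 57.7 CPM with MitoQ against 123, 121, 129, 115 and 124 CPM in controls. It fell by 1.19 on the log2 scale (SE 0.06; adjusted p = 4.51e-12).

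**Figure D2:**
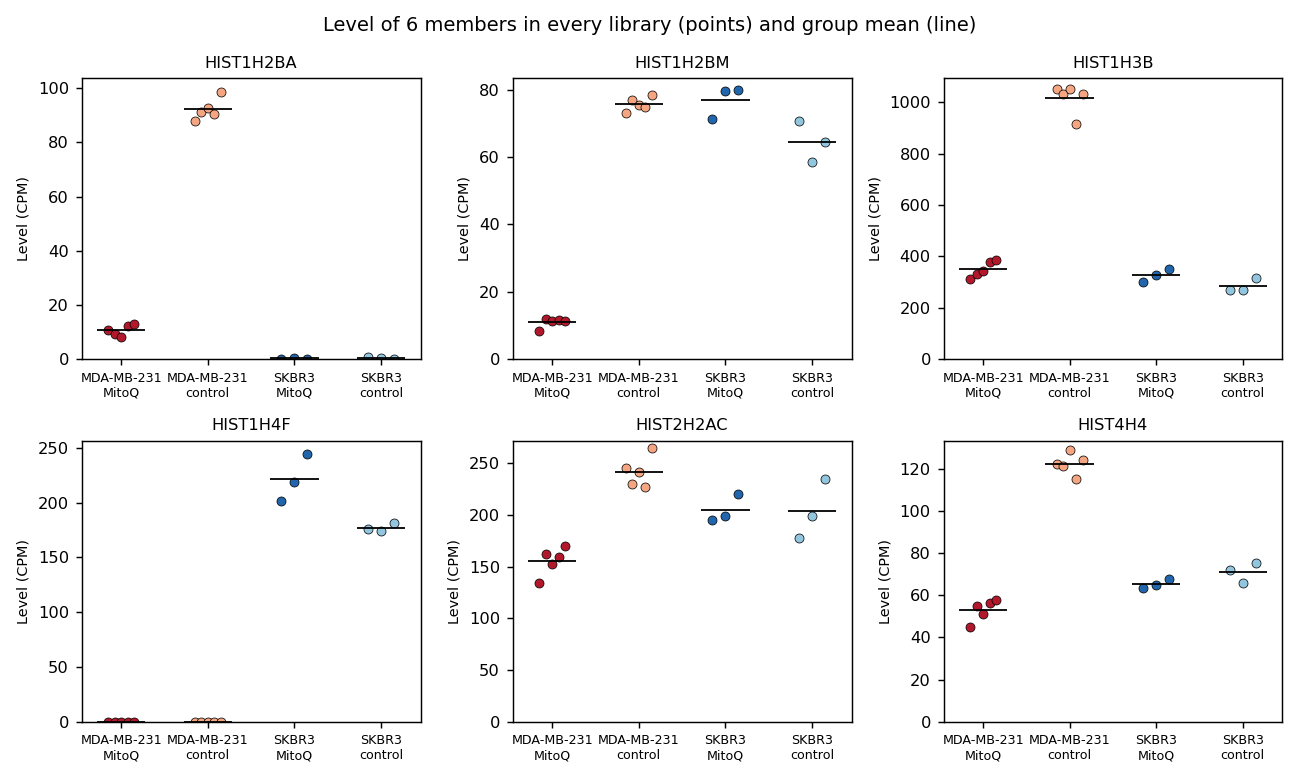
Level in CPM of 6 core histone genes in every library (points) with the group mean (line), in the 4 groups. HIST1H2BA, HIST1H2BM and HIST1H3B are lower in every MDA-MB-231 MitoQ library than in every MDA-MB-231 control library, and HIST1H4F is at 0 in all 10 MDA-MB-231 libraries.

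By position, the falls in MDA-MB-231 were larger in HIST1 than in HIST2. All 30 HIST1 genes tested fell, with a median log2 fold change of -1.62, and 11 of 13 HIST2 genes fell, with a median of -0.68. Of all genes tested in MDA-MB-231, 27.6% fell. The HIST2 values include HIST2H2BA, which had no call and lies apart from the other HIST2 genes. The difference between the HIST1 and HIST2 medians is a description and was not tested. Within HIST1 the genes fall into 4 groups separated by gaps of more than 200 kb. The HIST1H2AA and HIST1H2BA pair had a median of -3.33, HIST1H3A to HIST1H4H a median of -1.60 over 13 genes tested, HIST1H2BJ to HIST1H2AH a median of -1.61 over 4, and HIST1H2BL to HIST1H2BO a median of -1.43 over 11. Of the 18 genes with more than 50% of their stretches elsewhere, 9 lie in HIST2 and 9 in HIST1. These genes had a median of -1.07 (15 tested), and genes with at most 20% a median of -1.60 (23 tested). Genes with a spliced transcript or one over 1 kb in the annotation, forms that can carry a poly(A) tail, had a median of -1.05 (20 tested), and the others a median of -1.60 (25 tested). The part of copy number, transcript form and position in these medians was not tested.

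The HIST2 genes show that spread singly. Among the H2A genes, HIST2H2AC fell by 0.61 on the log2 scale in MDA-MB-231 (SE 0.06) and HIST2H2AB by 0.68 (SE 0.065). The libraries of HIST2H2AC were at 134, 162, 153, 159 and 170.2 CPM with MitoQ, all below the 245, 229.7, 242, 227 and 265 CPM of the controls. Among the H2B genes, HIST2H2BE fell by 1.18 (SE 0.07), to a mean of 179 ± 25.4 CPM with MitoQ against 412 ± 10.7 CPM in controls (SD, n = 5 each). HIST2H2BF fell by 0.94 (SE 0.06). The annotated pseudogenes fell less: HIST2H2BC by 0.38 (SE 0.09; adjusted p = 0.000764) and HIST2H2BD by 0.38 (SE 0.13; adjusted p = 0.0206). The third pseudogene tested, HIST2H2BA, averaged 3.19 ± 0.994 CPM with MitoQ and 3.83 ± 0.557 CPM in controls (SD, n = 5 each) and did not pass the test (adjusted p = 0.276). Of the H3 genes, HIST2H3C fell by 0.61 (SE 0.08) and HIST2H3D, which codes for the same protein, by 2.38. HIST2H3C has 100% and HIST2H3D 86.4% of its stretches elsewhere, and the genes were not summed. Their single values, and so the contrast between them, are uncertain. Of the H4 genes, HIST2H4A fell by 1.24 (SE 0.07) and its copy HIST2H4B by 0.33 (SE 0.12; adjusted p = 0.0311). Leaving out single libraries ended 2 of these calls, with adjusted p of 0.0503 to 0.113: that of HIST2H4B without control replicate 1, 3 or 5 or MitoQ replicate 1 or 2, and that of HIST2H2BD without control replicate 2 or MitoQ replicate 1 or 5. With plain library totals HIST2H4B had an adjusted p of 0.0739.

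Head-to-head H2A and H2B neighbours both fell in most pairs. The annotation gives 13 pairs whose starts lie on opposite strands less than 1 kb apart. In MDA-MB-231 both partners were tested in 10 pairs, and both fell in 9, where 27.6% of all single genes tested fell. The exception was the pair of HIST2H2AA3 and HIST2H2BD. The log2 fold changes of partners differed by 0.18 to 0.93, with a median of 0.50; these differences were not tested. The H2A partner had the larger fall in 4 pairs. HIST1H2AJ and HIST1H2BM, whose starts are 304 bases apart, differed by 0.93: HIST1H2AJ fell by 1.84 (SE 0.09) and HIST1H2BM by 2.77 (SE 0.07). HIST1H2AJ has 86.0% of its stretches elsewhere, mostly in HIST1H2AI, so its single value is uncertain. Summed with HIST1H2AI it fell by 1.58 (SE 0.06). HIST1H2AG and HIST1H2BJ differed by 0.18.

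**Figure D3:**
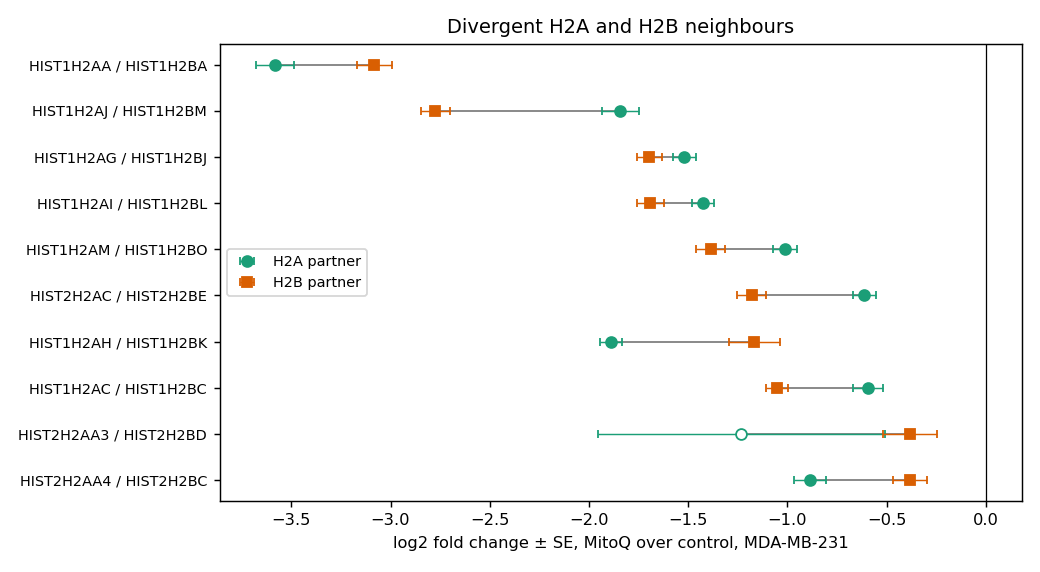
The log2 fold change ± SE, MitoQ over control, in MDA-MB-231 for both partners of the 10 head-to-head pairs in which both were tested; open symbols have an adjusted p of 0.05 or more. The HIST1H2AA and HIST1H2BA pair lies farthest left, at -3.58 and -3.08, and partners differ by up to 0.93. The 0.93 is that of HIST1H2BM and HIST1H2AJ, whose single value is uncertain because 86.0% of its stretches occur elsewhere.

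In SKBR3, 60 of the 67 genes were tested; 17 rose with MitoQ (adjusted p under 0.05), where 13.8% of all 15026 genes tested rose, and 2 fell, where 14.1% fell. The median log2 fold change was 0.13, against -0.00064 over all genes tested. By class, 10 of 21 H2B, 5 of 12 H4, 1 of 16 H2A and 1 of 11 H3 genes tested rose. In 18 genes every MitoQ library lay above every control library, which held for 21.3% of all genes tested, and in 0 genes below, where 18.7% of all genes tested lay below; 16 of these 18 were among the 17 that rose. The count of rises was 11 without MitoQ replicate 2, 12 without MitoQ replicate 3, 13 without control replicate 2 and 25 without control replicate 3.

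The rises in SKBR3 were led by H4 and H2B genes of HIST1 and by HIST2H2AB. HIST1H4D had the largest fold change among the 17 genes that rose, at 3.33, 3.85 and 3.29 CPM with MitoQ against 1.63, 0.733 and 1.41 CPM in controls, a log2 fold change of 1.41 ± 0.22 (SE; adjusted p = 0.000394). HIST2H2AB was at 116, 118 and 132 CPM with MitoQ against 86.4, 84.2 and 94.0 CPM in controls, a log2 fold change of 0.45 ± 0.05 (SE; adjusted p = 2.40e-05). HIST1H2BC was at 237, 255.8 and 274 CPM with MitoQ against 190.0, 182 and 211 CPM in controls, a log2 fold change of 0.37 ± 0.05 (SE; adjusted p = 0.000237). These groups do not overlap. HIST1H2BL rose by 0.31 (SE 0.06; adjusted p = 0.00278), and HIST1H2BI, the H2B gene with the highest level per length in this line, rose by 0.27 (SE 0.07; adjusted p = 0.0238). The call of HIST1H2BI was lost without MitoQ replicate 2 (adjusted p = 0.0595), MitoQ replicate 3 (0.0626) or control replicate 3 (0.0898). HIST1H4F was at 201, 219 and 244 CPM with MitoQ against 176, 174 and 181 CPM in controls, a log2 fold change of 0.30 ± 0.05 (SE; adjusted p = 0.000776). HIST1H3B was the H3 gene that rose; it overlapped between groups (302, 328 and 352 CPM with MitoQ; 268, 268 and 315 CPM in controls) and had an adjusted p of 0.0491, which was 0.0526 with another scaling of the libraries (DESeq2 size factors) and 0.0839 when both lines were fitted together. Its call was also lost without MitoQ replicate 2 or 3 or control replicate 1 or 2, with adjusted p of 0.108 to 0.160.

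The 2 genes that fell in SKBR3 were H4 genes. HIST4H4 was at 63.5, 64.9 and 67.6 CPM with MitoQ against 72.0, 65.9 and 75.2 CPM in controls, a log2 fold change of -0.15 ± 0.05 (SE; adjusted p = 0.0357). HIST2H4B was at 31.4, 28.7 and 26.0 CPM with MitoQ against 35.1, 31.03 and 34.6 CPM in controls, a log2 fold change of -0.25 ± 0.08 (SE; adjusted p = 0.0246). Both overlap between groups. HIST2H4B is a near-identical copy of HIST2H4A, which rose by 0.27 on the log2 scale (SE 0.07; adjusted p = 0.0209); summed, the copies rose by 0.24 (SE 0.07; adjusted p = 0.0189). The rise of HIST2H4A was lost without control replicate 1 (adjusted p = 0.0875) or control replicate 2 (0.0539), and with both lines fitted together (0.0526). The falls of HIST4H4 and HIST2H4B both held without control replicate 2, that of HIST2H4B also without MitoQ replicate 1, and neither held without any other single library (adjusted p of 0.0567 to 0.194 for HIST4H4 and 0.0610 to 0.117 for HIST2H4B). HIST4H4 had an adjusted p of 0.0834 with DESeq2, 0.0521 without a filter and 0.288 with both lines fitted together, where that of HIST2H4B was 0.156. The H2A gene with the highest level per length, HIST2H2AA4, was at 664, 709 and 750.2 CPM with MitoQ against 528, 632 and 759 CPM in controls, and did not pass the test (log2 fold change 0.12 ± 0.14, SE; adjusted p = 0.588). Its copy HIST2H2AA3 was at 15.1, 6.06 and 31.5 CPM with MitoQ against 0.433, 0.266 and 12.1 CPM in controls. These libraries overlap, and its log2 fold change of 1.74 ± 1.27 (SE), the highest of the 60 genes, did not pass the test either (adjusted p = 0.406).

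**Figure D4:**
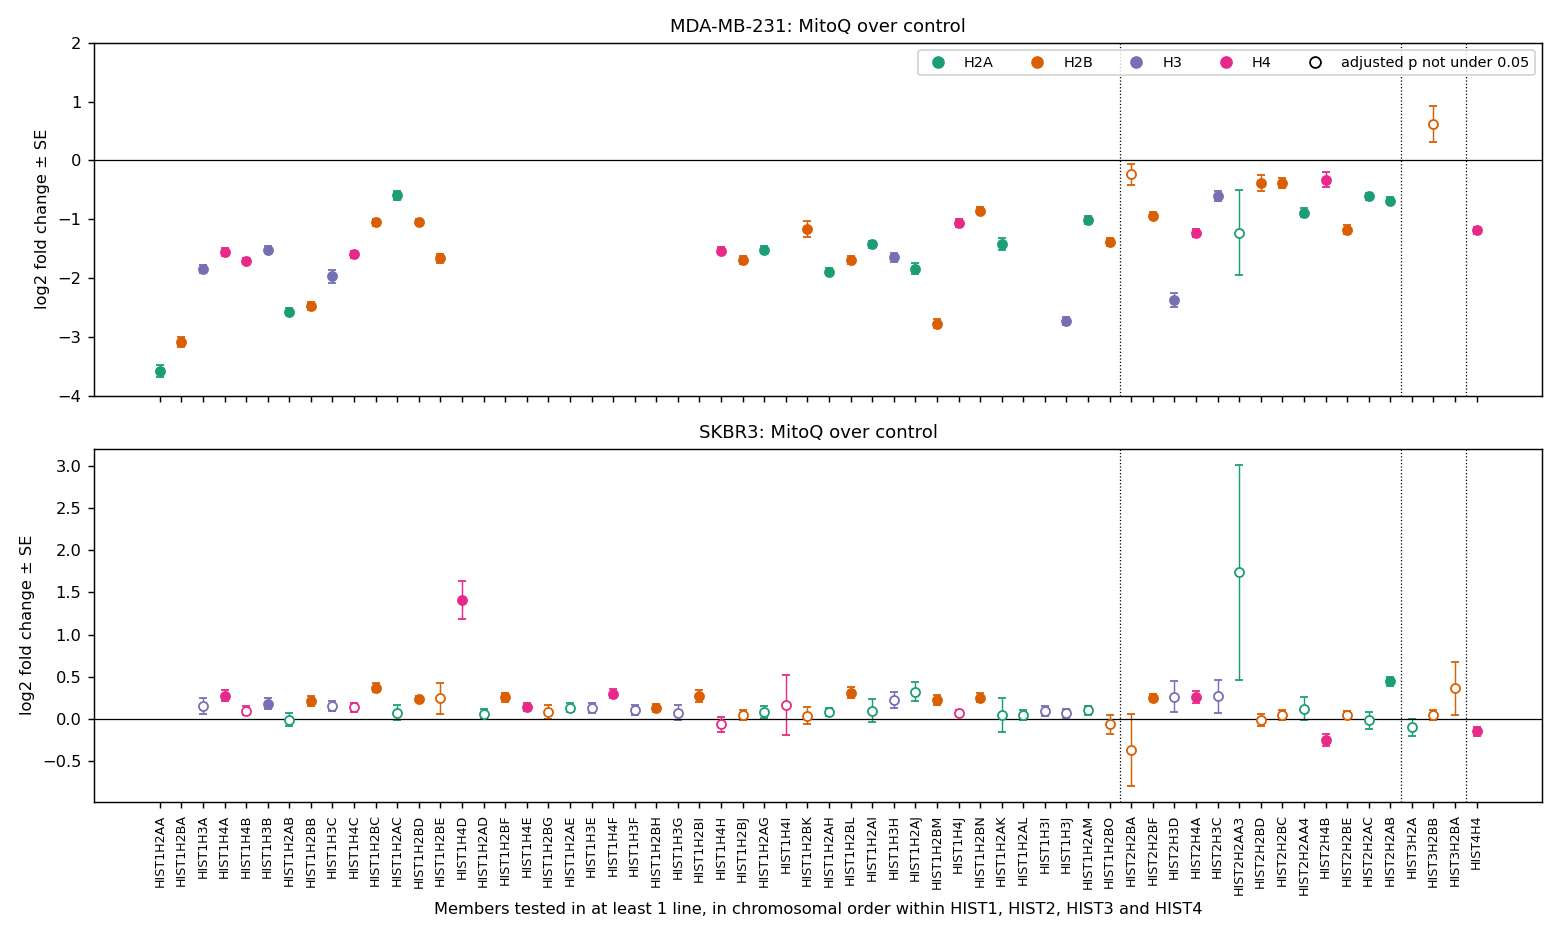
The log2 fold change ± SE, MitoQ over control, of each core histone gene tested in MDA-MB-231 (top) and SKBR3 (bottom), coloured by class; open points have an adjusted p of 0.05 or more. In MDA-MB-231, 42 of 45 genes fell; in SKBR3, 17 of 60 rose, of which HIST1H4D, at 1.41, had the largest fold change; the open point at 1.74 is HIST2H2AA3, which has no call.

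The effect of MitoQ differed between the lines. In the interaction test over all 16 libraries, 62 of the 67 genes were tested and the change in MDA-MB-231 was lower than that in SKBR3 in 45, where 19.1% of all 17094 genes tested were lower. It was higher in 0 genes with edgeR, 0 with DESeq2 and 0 at an unadjusted p under 0.05, where 14.9% of all genes tested were higher. The median difference of log2 fold changes was -1.52, against -0.03 over all genes tested, and -1.55 over the 41 genes at 1 CPM or more in both lines. Of those 41, 39 were called lower and 0 higher. The other genes called lower were near 0 in 1 line, so the size of their difference cannot be read. They were HIST1H4D, HIST1H2AD, HIST1H2BF and HIST1H3I, near 0 in MDA-MB-231, and HIST1H2AA and HIST1H2BA, near 0 in SKBR3. Both lines had enough counts for a test in 43 genes. Of these, 11 fell in MDA-MB-231 and rose in SKBR3, and the interaction was called in all 11; 27 fell in MDA-MB-231 with no call in SKBR3, and 2, HIST2H4B and HIST4H4, fell in both. HIST1H2BM had the largest difference among the genes above 1 CPM in both lines, at -3.05 ± 0.11 (SE; adjusted p = 9.55e-16). HIST4H4, which fell in both lines, still differed by -1.08 ± 0.09 (SE; adjusted p = 2.80e-09), and HIST2H4B had a difference of -0.12 ± 0.15 (SE; adjusted p = 0.597).

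Between the control cells, MDA-MB-231 had the higher level in 38 of 62 core histone genes tested (44.4% of all 16398 genes tested were higher) and the lower level in 22 (42% were lower). Of all genes tested, 86.5% differed in either direction. The libraries did not overlap in 37 of the higher genes (43.5% of all genes tested) and 20 of the lower ones (39.4%). The median log2 difference, MDA-MB-231 over SKBR3, was 0.67, against 0.02 over all genes tested. Line and passage cannot be told apart in this comparison. With a level of 1 CPM as the border, set after the values were seen, 41 genes were above it in both lines, 16 in SKBR3 only, 3 in MDA-MB-231 only and 6 in neither. HIST1H3D, at 0, 0.907 and 5.23 CPM in the SKBR3 MitoQ libraries and 0 elsewhere, has none of these patterns; it overlaps AL031777.3, a gene at 182 CPM in SKBR3 MitoQ and 161 CPM in SKBR3 controls.

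Most genes above 1 CPM in SKBR3 only lay side by side, 12 of the 16 in 1 stretch. From HIST1H4D to HIST1H2BI (chr6:26188765-26273356, GRCh38, 84.6 kb), all 14 core histone genes and the 7 other rows of the table were under 0.4 CPM in both MDA-MB-231 groups. The 14 genes summed to 0.483 CPM in MDA-MB-231 MitoQ (59 counts over 5 libraries) and 0.920 CPM in its controls (116 counts), against 1896 CPM in SKBR3 MitoQ and 1665 CPM in SKBR3 controls. The neighbours on both sides were expressed in MDA-MB-231. HIST1H2BE, just before the stretch, averaged 18.2 CPM with MitoQ and 58.7 CPM in controls in MDA-MB-231, but 2.93 and 2.44 CPM in SKBR3. HIST1H4H, just after it, averaged 101 and 299 CPM in MDA-MB-231, and 138 and 142 CPM in SKBR3. The stretch also holds HIST1H1D, a linker histone gene, at 0 and 0.0615 CPM in MDA-MB-231 and 358 and 340.1 CPM in SKBR3 (MitoQ, then control).

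Counts of single genes show the depth behind this gap. HIST1H4F and HIST1H3F had 0 counts in all 10 MDA-MB-231 libraries. Against a floor of 3 counts over the 5 control libraries, HIST1H4F was at least 7435-fold lower and HIST1H3F at least 5800.2-fold lower in MDA-MB-231 controls than in SKBR3 controls, by counting error alone. HIST1H2BH had 1 count in the MDA-MB-231 controls against 12038 in the SKBR3 controls, a ratio of 4.04e-05 (95% counting interval 1.02e-06 to 0.000225). HIST1H3E had the highest level of the stretch in MDA-MB-231 controls, 0.391 CPM from 49 counts. The copy number of this DNA was not measured.

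A shorter stretch from HIST1H2AL to HIST1H4L (chr6:27865355-27873510, 8.16 kb) had the same order of lines in its sum, through HIST1H2AL and HIST1H3I. HIST1H4L was near 0 in both lines, with 7 counts in MDA-MB-231 controls and 0 in SKBR3 controls. Its 3 core histone genes summed to 0.0177 CPM in MDA-MB-231 MitoQ and 0.151 CPM in its controls, against 121 CPM in SKBR3 MitoQ and 113 CPM in SKBR3 controls. In HIST3, HIST3H2A to HIST3H2BA (chr1:228456979-228464626, 7.65 kb) summed to 0.660 and 0.447 CPM in MDA-MB-231 MitoQ and controls, against 77.9 and 76.4 CPM in SKBR3 MitoQ and controls. HIST3H2BB was the gene read there in MDA-MB-231, at 0.851, 0.424, 0.784, 0.9504 and 0.292 CPM with MitoQ and 0.506, 0.467, 0.424, 0.387 and 0.407 CPM in controls; its log2 fold change was 0.61 ± 0.31 (SE; adjusted p = 0.0974). The 16 genes together made up 22.4% of the core histone sum in SKBR3 controls and 0.0101% in MDA-MB-231 controls.

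The 3 genes above 1 CPM in MDA-MB-231 only were HIST1H2AA and HIST1H2BA, the testis pair at the start of HIST1, and the pseudogene HIST2H2BA. HIST2H2BA averaged 3.83 CPM in MDA-MB-231 controls and 0.839 CPM in SKBR3 controls, close to the border. It has 84.7% of its stretches elsewhere (67.8% in HIST2H2BF), so its single value is uncertain. HIST1H2BA had 11577 counts in MDA-MB-231 controls and 24 in SKBR3 controls, a ratio of CPM of 235 (95% counting interval 158 to 367). The fitted log2 difference was 7.84, and 8.44 without SKBR3 control replicate 1 and 7.24 without SKBR3 control replicate 3. In SKBR3 it was at 0.193, 0.399 and 0.0539 CPM with MitoQ and 0.704, 0.4661 and 0.145 CPM in controls, too low for a test there. The promoters of this pair held all 3 motifs; their windows overlap. Of the 35 promoters of genes read in both lines, 28 held the TATA box, 29 the CCAAT box and 16 the octamer. Of the 15 promoters of genes read in SKBR3 only, 5 held the TATA box, 13 the CCAAT box and 7 the octamer. Of the 5 promoters of genes read in neither line, 4 held the TATA box, 3 the CCAAT box and 0 the octamer. Differences between these counts were not tested.

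**Figure D5:**
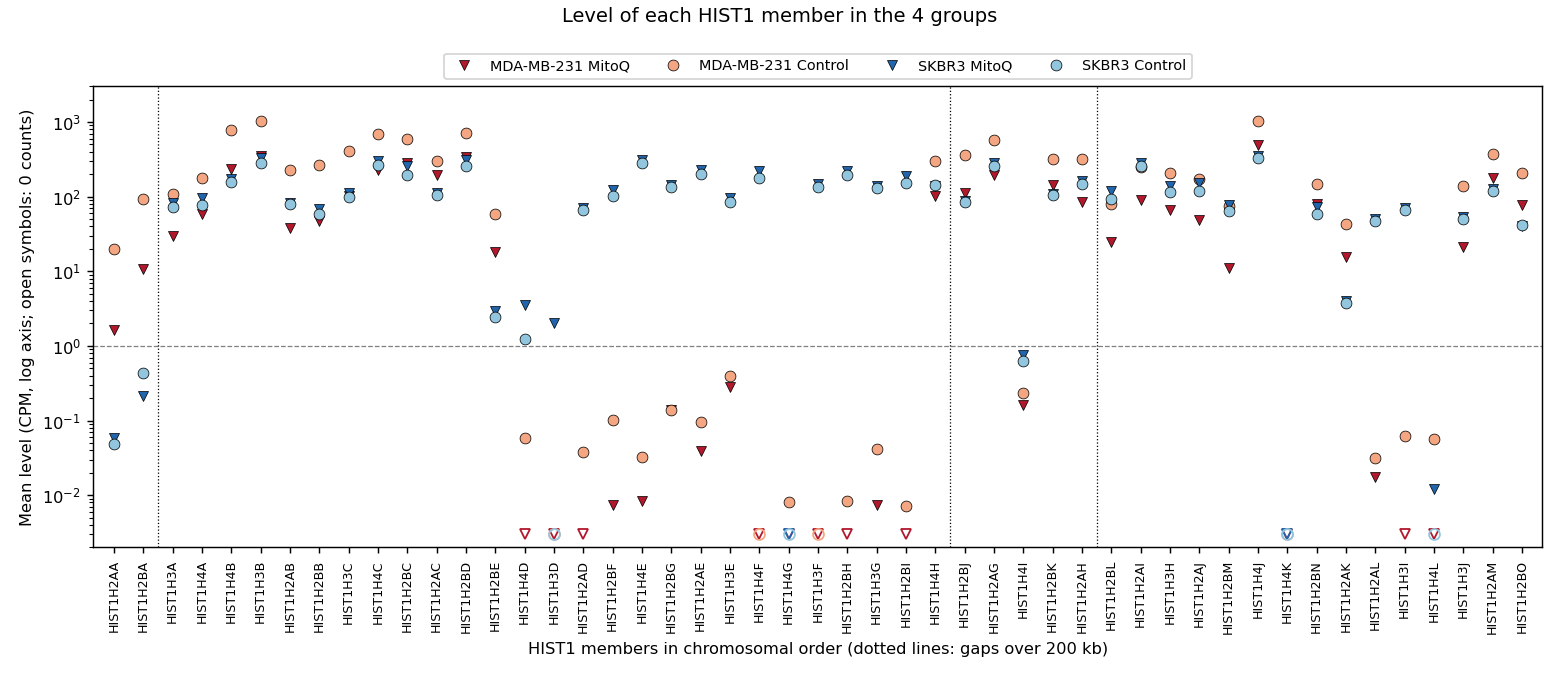
Mean level in CPM (log axis) of the 49 HIST1 genes in chromosomal order in the 4 groups; open symbols at the bottom mark groups with 0 counts, and dotted lines gaps of more than 200 kb. From HIST1H4D to HIST1H2BI the MDA-MB-231 groups lie under 0.4 CPM, while the 14 genes there sum to 1896 CPM in SKBR3 MitoQ and 1665 CPM in SKBR3 controls.

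Among the 41 genes above 1 CPM in both lines, 35 were higher and 4 lower in MDA-MB-231 controls than in SKBR3 controls, with a median log2 difference of 1.17. Of all genes tested between the controls, 44.4% were higher and 42% lower. With MitoQ, 40 of the 41 fell in MDA-MB-231, and in SKBR3 11 rose and 2 fell. Of all genes tested, 27.6% fell in MDA-MB-231, and 13.8% rose and 14.1% fell in SKBR3. Levels within a class were uneven. The 10 genes with the most CPM held 60.7% of the sum in MDA-MB-231 MitoQ, 56.4% in its controls, 46.2% in SKBR3 MitoQ and 45.6% in SKBR3 controls. Per length, HIST1H4J stood first in MDA-MB-231 and HIST2H2AA4 in SKBR3, at 1255 CPM per kb with MitoQ and 1134 CPM per kb in controls.

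Other genes of histone supply had median changes nearer 0 in MDA-MB-231 than the -1.43 of the core histone genes. The counts that follow stand beside 27.6% of all genes tested that fell and 29.9% that rose in MDA-MB-231, and 14.1% that fell and 13.8% that rose in SKBR3. Among regulators of histone transcription the median was -0.03 and 3 of 10 fell: POU2F1, which binds the octamer, by 0.87 on the log2 scale (SE 0.06; adjusted p = 7.76e-10), CDK2 by 0.30 and YY1 by 0.20. NPAT averaged 34.4 ± 5.83 CPM with MitoQ and 31.7 ± 1.21 CPM in controls (SD, n = 5 each) and did not pass the test (log2 fold change 0.14 ± 0.09, SE; adjusted p = 0.194). Among factors that process the 3′ end the median was -0.05, and 6 of 14 fell and 3 rose; SLBP fell by 0.24 (SE 0.05; adjusted p = 0.000217) and LSM11, a subunit of the U7 particle, rose by 0.21 (SE 0.08; adjusted p = 0.0359). Among factors of histone mRNA decay and translation, 2 of 10 fell and 3 rose, with a median of 0.08. Of 16 histone chaperones, 7 fell and 2 rose, with a median of -0.06; HJURP, the CENPA chaperone, fell by 0.95. In SKBR3, 1 of 10 regulators of transcription fell and 1 rose, 3 of 14 processing factors fell and 1 rose, 2 of 10 factors of decay and translation fell and 1 rose, and 4 of 16 chaperones fell and 2 rose.

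Genes of DNA replication and S phase were counted for both lines, beside the same shares of all genes tested (27.6% fell and 29.9% rose in MDA-MB-231, 14.1% fell and 13.8% rose in SKBR3). In MDA-MB-231, 13 of 22 fell and 1 rose, with a median log2 fold change of -0.18; MKI67, a marker of cycling cells, fell by 1.09 (SE 0.05), and CCNA2, the S and G2 phase cyclin, by 0.95 (SE 0.05). In SKBR3, 4 of 22 rose and 1 fell; CDT1, a licensing factor, rose by 0.42 (SE 0.07), and CCNA2 fell by 0.21 (SE 0.05). The share of cells in S phase was not measured, and its part in the core histone values was not tested. Linker histone H1 genes, most of which lie in HIST1, fell in 5 of 5 cases tested in MDA-MB-231 and rose in 3 of 7 in SKBR3; HIST1H1C fell by 1.15 in MDA-MB-231, and HIST1H1E by 1.11. Of 8 replacement core histone genes, which lie outside the clusters and are mostly not tied to S phase, 7 fell and 1 rose in MDA-MB-231, with a median of -0.35. CENPA, the centromeric H3, fell by 1.29 (SE 0.06), and H3F3B, an H3.3 gene, rose by 0.14. In SKBR3, 4 of the 8 fell and 1 rose.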

How the data were processed

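RNA from 16 libraries was sequenced, and estimated counts per gene, which the authors deposited as whole numbers, were used as deposited. Per the submitters' processing notes, Salmon, edgeR and the GRCh38 build were used; versions are not given in the sources used here, nor are library type, strandedness, poly(A) selection and annotation release. In the table's header the SKBR3 columns are named with the other line's number; their line markers were those of SKBR3. Total counts ran from 14723152 to 29294865 per library.

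Each comparison was fitted over all genes that passed edgeR's expression filter (edgeR 4.0.16 in R 4.3.3, limma 3.58.1; TMM scaling, quasi-likelihood F test with robust spread, two-sided), with Benjamini-Hochberg adjustment over all genes tested and a threshold of 0.05. The treatment effect was fitted within each line, the interaction over the 4 groups, and the lines were compared over controls. The SE is the log2 fold change divided by the square root of F. Levels are TMM-scaled CPM, per kb of the longest annotated transcript where genes are compared. DESeq2 1.42.0 was an alternative. Symbols were matched to GENCODE release 29 (65 genes by ID, 2 by symbol), and sharing was counted over 31-base stretches. Python 3.11.15, pandas 2.3.3, numpy 2.4.6 and matplotlib 3.10.9 were used, and the fits were tested on simulated data.

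The genes, lists and rules were chosen with earlier results of these data known. Genes were named by rule: in each class the highest level per length and the largest falls and rises, all HIST2, HIST3 and HIST4 genes tested, and the pair HIST1H2AA and HIST1H2BA. The labels do not say that replicates came from separate cultures, so p-values measure the spread between these samples, which may be technical. No 2 libraries agreed within sampling noise (chi-square per gene of 2.58 to 19.6). Line and passage cannot be told apart. Floors of 3 counts and 95% intervals cover counting error only.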

Additional observations from a re-analysis of the deposited data

Results flagged for a closer look

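Among 84 sets of 5 libraries checked, 1 library stood apart from its group in 7. Chance alone gives about 1 in 20 for independent sets. The sets share libraries, and sums hold genes that were also checked singly, so 7 of 84 cannot be set against that rate. In MDA-MB-231 MitoQ, replicate 1 was the low library, with 8.47 CPM for HIST1H2BM, 211 CPM for HIST1H4B and 166 CPM for the sum of HIST1H3J and HIST1H2AM. In MDA-MB-231 controls, replicate 4 was the low library, with 914 CPM for HIST1H3B, 793 CPM for HIST2H4A, 798 CPM for the sum of HIST2H4A and HIST2H4B, and 174 CPM for the sum of HIST1H2BN and HIST1H2AK. In all 7 the MitoQ libraries still lay below the control libraries.

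The effect of MitoQ differed between the lines in 45 of 62 core histone genes tested (edgeR interaction test). The change in MDA-MB-231 was the lower one in all 45. Of all 17094 genes tested, 34.1% differed in either direction and 19.1% were lower. The values that follow are log2 fold changes in MDA-MB-231 minus those in SKBR3. For the genes listed here by class, the call of a difference was not checked by leaving out libraries. Among H2A genes the difference was -2.61 for HIST1H2AB, -1.05 for HIST2H2AA4, -0.64 for HIST2H2AC and -1.17 for HIST2H2AB. Among H2B genes it was -3.05 for HIST1H2BM, -2.05 for HIST1H2BL, -1.47 for HIST1H2BC, -1.33 for HIST1H2BD, -1.27 for HIST2H2BE and -1.24 for HIST2H2BF. The H2B pseudogenes had smaller differences, -0.47 for HIST2H2BC and -0.41 for HIST2H2BD. Among H3 genes it was -2.84 for HIST1H3J, -2.68 for HIST2H3D, -1.75 for HIST1H3B and -0.92 for HIST2H3C. Among H4 genes it was -1.86 for HIST1H4B, -1.78 for HIST1H4C, -1.55 for HIST2H4A, -1.18 for HIST1H4J and -1.08 for HIST4H4.

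Some differences rest on counts near the floor in 1 line, and their size cannot be read. Near 0 in MDA-MB-231 were HIST1H4D (-5.12), HIST1H3I (-3.81), HIST1H2BF (-3.28) and HIST1H2AD (-3.17). Near 0 in SKBR3 were HIST1H2AA (-3.49) and HIST1H2BA (-2.39).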

How the results depend on the processing

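In MDA-MB-231 the number of genes that fell with MitoQ, 42 of 45, was 37 to 46 under the other settings (37 of 38 with near-identical copies summed) and 40 to 42 with 1 library left out. The number that rose was 0, and 0 to 1 with 1 library left out: HIST3H2BB, at 0.74 without MitoQ replicate 2 (adjusted p = 0.0488) and 0.80 without MitoQ replicate 5 (adjusted p = 0.0214). In SKBR3 the 17 rises were 12 to 24 under the other settings and 11 to 25 with 1 library left out. The 2 falls became 1 under the DESeq2 Wald test, without a filter and with copies summed, 0 in a single fit over all libraries, and 0 to 2 with 1 library left out. The interaction was called lower in 41 to 45 genes, and in 0 to 1 genes higher with 1 library left out (1 without MDA-MB-231 MitoQ replicate 5). The difference of HIST1H3I was lost without MDA-MB-231 control replicate 2 (adjusted p = 0.0709) and that of HIST1H2AA without SKBR3 MitoQ replicate 2 (adjusted p = 0.0873). The cause of these changes was not tested.

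Values in SKBR3 that turned direction were of genes without a call. HIST2H2BD was 0.0071 and HIST2H2AC 0.0075 in the single fit. With 1 library left out, HIST2H2BD ran from -0.059 to 0.050, HIST2H2AC from -0.10 to 0.11, HIST2H2BA from -0.84 to 0.042 and HIST3H2A from -0.21 to 0.057.

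Replicate numbers did not pair the libraries: same-numbered libraries had correlations of -0.132 to 0.0377 in MDA-MB-231 and -0.0041 to 0.0973 in SKBR3. With the replicate block, 42 genes fell in MDA-MB-231, 24 rose and 2 fell in SKBR3, and the interaction was lower in 45; the rise of HIST1H2BI in SKBR3 had an adjusted p of 0.0576.

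Depth limits genes near 0: a floor of 3 counts is 0.0249 CPM over the MDA-MB-231 MitoQ group, 0.0239 CPM in its controls, 0.0449 CPM in SKBR3 MitoQ and 0.0491 CPM in SKBR3 controls. Reads of near-identical copies cannot be assigned singly.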

Other observations

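Among the 13 core histone rows with a pseudogene name, which are not counted above, 3 were tested in MDA-MB-231 and all 3 fell with MitoQ (edgeR, adjusted over all genes tested). Of all genes tested in MDA-MB-231, 27.6% fell. In SKBR3, HIST2H3PS2 (adjusted p = 0.112), HIST1H2APS4 (0.357) and HIST1H2APS5 (0.165) were tested with no call, where 28% of all genes tested had one. HIST2H3PS2, an H3 pseudogene by name in HIST2, averaged 19.97 CPM with MitoQ and 42.1 CPM in controls, a log2 fold change of -1.05 (adjusted p = 8.51e-12), against 10.9 CPM in SKBR3 MitoQ and 9.19 CPM in SKBR3 controls. HIST1H2APS5 averaged 0.455 CPM with MitoQ and 2.17 CPM in controls of MDA-MB-231, a log2 fold change of -2.22 (adjusted p = 8.63e-08). HIST2H3DP1 averaged 1.03 CPM with MitoQ and 1.99 CPM in controls of MDA-MB-231, a log2 fold change of -0.93 (adjusted p = 0.000116), and had 0 counts in the 6 SKBR3 libraries.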
